A study of Mus musculus with 33 samples.

Results

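The 32 genes described here code for enzymes and regulators of cholesterol and fatty acid synthesis. They were chosen by name, and all 32 were among the 16336 genes listed. They fall into 18 genes of the sterol pathway, 4 regulators or sterol carriers, and 10 genes of fatty acid synthesis and desaturation. Their RNA was measured in E14Tg2a, a wild-type mouse embryonic stem (ES) cell line of strain 129/Ola, and in its derivatives ΔK9.1 and ΔK9.2. Each derivative is 1 clone with a homozygous Crispr/Cas9 deletion of the region between the *Nanog* enhancer and promoter that carries H3K9 tri-methylation. Cells were taken undifferentiated, grown with serum and LIF (day 0), and after 4, 6 and 8 days of embryoid body (EB) differentiation in serum without LIF. Per the methods, the aggregates were kept until day 4 on dishes not treated for cell culture. They were then replated on gelatinised culture dishes for days 6 and 8, so comparisons of these days with earlier ones cross a change of culture. Each line had 3 replicate libraries on days 0, 4 and 8 and 2 on day 6, which gave 33 libraries in 12 groups.

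Cells make cholesterol from acetyl-CoA through mevalonate, isoprenoid units and squalene, and the first sterol, lanosterol, is then trimmed in a series of oxygen-requiring and reducing steps. Fatty acids are built from the same acetyl-CoA, which ATP citrate lyase makes from citrate and which acetyl-CoA carboxylase and fatty acid synthase extend before elongases and desaturases modify the chain. Both pathways are switched on by the SREBP transcription factors, which are held in the endoplasmic reticulum by INSIG proteins when sterols are plentiful. SREBP2 is known mainly for sterol genes and SREBP1 mainly for fatty acid genes, and NF-Y, which binds CCAAT, is a known partner of both. In the early mouse embryo the visceral endoderm is a site of lipid uptake and lipoprotein production.

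A CCAAT box was found in most of the sterol gene promoters searched and in 2 of the 7 fatty acid gene promoters searched, a share near that of all genes. A RefSeq promoter window of build GRCm38.p6 was matched for 25 of the 32 members, and the 250 bases before the start site that lies farthest upstream were searched on both strands. The letters CCAAT were in 13 of 15 sterol pathway windows, in 3 of 3 windows of the regulators and in 2 of 7 fatty acid windows (28.6%). In the fatty acid group *Scd1*, *Scd2* and *Fads1* had no window. The share over all 11453 listed genes with a window was 37%. The sterol regulatory element TCACNCCAC was in 1 member, *Hmgcs1*, and in 1.01% of all windows. The E-box CACGTG was in *Hsd17b7*, *Sc5d* and *Insig1*, which is 3 of 25 members, and in 8.36% of all windows. A match describes the letters only and does not show binding. The 6 windows below hold the sterol element with 3 CCAAT boxes (*Hmgcs1*), closely spaced CCAAT boxes in opposite directions (*Mvd*, *Fasn*), a CCAAT box with an E-box (*Sc5d*, *Insig1*) and none of these (*Me1*). Each is written 5′ to 3′ on the strand of its gene and ends before any transcript start annotated in GENCODE M21. Capitals mark CCAAT or its reverse complement ATTGG, the sterol regulatory element and the E-box, and in *Fasn* 2 of the 3 CCAAT matches overlap each other.
Hmgcs1 (chr13:119690101-119690350, plus strand, 250 bases): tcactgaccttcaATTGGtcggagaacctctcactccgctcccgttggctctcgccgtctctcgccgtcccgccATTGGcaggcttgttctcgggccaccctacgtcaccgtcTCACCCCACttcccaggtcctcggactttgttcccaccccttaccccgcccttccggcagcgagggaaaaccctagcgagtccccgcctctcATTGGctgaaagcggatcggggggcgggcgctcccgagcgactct
Mvd (chr8:122443423-122443672, minus strand, 250 bases): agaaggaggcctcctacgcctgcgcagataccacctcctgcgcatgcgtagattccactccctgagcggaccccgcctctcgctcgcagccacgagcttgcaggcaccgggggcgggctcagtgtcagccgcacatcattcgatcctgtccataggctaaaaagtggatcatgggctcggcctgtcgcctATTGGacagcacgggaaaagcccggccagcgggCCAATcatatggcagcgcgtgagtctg
Sc5d (chr9:42264301-42264550, minus strand, 250 bases): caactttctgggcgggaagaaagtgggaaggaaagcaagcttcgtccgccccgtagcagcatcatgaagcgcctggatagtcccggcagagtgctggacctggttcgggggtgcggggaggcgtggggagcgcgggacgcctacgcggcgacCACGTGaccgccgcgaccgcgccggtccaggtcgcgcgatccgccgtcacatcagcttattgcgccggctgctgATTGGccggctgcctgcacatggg
Insig1 (chr5:28071162-28071362, plus strand, 201 bases): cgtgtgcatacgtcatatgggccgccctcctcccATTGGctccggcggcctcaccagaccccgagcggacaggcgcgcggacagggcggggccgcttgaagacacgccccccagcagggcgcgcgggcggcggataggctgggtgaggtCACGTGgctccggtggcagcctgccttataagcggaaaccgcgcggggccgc
Fasn (chr11:120824548-120824797, minus strand, 250 bases): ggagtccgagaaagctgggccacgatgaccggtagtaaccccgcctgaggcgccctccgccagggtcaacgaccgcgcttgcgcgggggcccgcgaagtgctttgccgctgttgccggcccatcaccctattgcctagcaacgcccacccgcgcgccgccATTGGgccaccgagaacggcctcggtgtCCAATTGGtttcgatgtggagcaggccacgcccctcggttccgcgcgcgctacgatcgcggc
Me1 (chr9:86695954-86696164, minus strand, 211 bases): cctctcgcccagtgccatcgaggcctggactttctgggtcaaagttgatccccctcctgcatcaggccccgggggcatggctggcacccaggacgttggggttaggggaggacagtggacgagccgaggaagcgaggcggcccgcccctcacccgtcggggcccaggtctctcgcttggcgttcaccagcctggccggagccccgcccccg

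The values are TPM, each transcript's length-scaled share of its library, so levels of different genes can be set side by side. The listed TPM summed to between 994284 and 998266 per library, and replicates correlated at 0.960 to 0.988 across genes on the log2 scale. TPM keep no record of depth, so the precision comes from the replicates. All differences below are log2 fold changes of TPM + 1 with their standard error (SE) from limma, adjusted by Benjamini-Hochberg over all genes tested, and a call is an adjusted p under 0.05. In bulk RNA, fewer cells of a type and less RNA per cell cannot be told apart. *Nanog* averaged 344 TPM on day 0 of E14Tg2a, with ΔK9.1 at 467.7 and ΔK9.2 at 425.6, and the deletion lies outside its transcript, so this level does not check the labels.

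In wild-type cells, transcripts of nearly the whole module rose by day 8 of EB differentiation. The summed TPM of the 18 sterol pathway genes went from 1054 ± 96.9 (SD, n = 3) on day 0 to 976 ± 55.7 on day 4, 1508 ± 40.0 on day 6 (n = 2) and 2357 ± 329 on day 8. The sum of the 10 fatty acid genes went from 671 ± 44.7 through 705 ± 54.0 and 848 ± 37.7 to 1344 ± 135. That of the 4 regulators went from 236 ± 25.2 through 263 ± 40.2 and 250.1 ± 9.34 to 398 ± 35.5. Of the 32 members, 29 were called higher on day 8 than on day 0 and none lower, where 32.1% of all 16336 genes were called higher and 26.2% lower. Among them 14 rose by more than 1 on the log2 scale, against 15.9% of all genes. In 29 members all 3 day 8 libraries lay above all 3 day 0 libraries, which held for 32.9% of all genes. The median change was 0.93 for the sterol pathway, 0.72 for the regulators and 1.14 for the fatty acid genes, against 0.05 for all genes. *Srebf1*, *Acly* and *Elovl6* were the members not called. Cell markers changed over the same days, with 10 of 10 ES cell markers called lower. Called higher were 13 of 15 visceral and primitive endoderm, 11 of 11 mesoderm and heart and 7 of 8 endothelial and blood markers. Of 6 neural markers 1 was higher and 3 lower. The part of these cells, or of the replating after day 4, in the rise of the members was not tested.

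**Figure D1:**
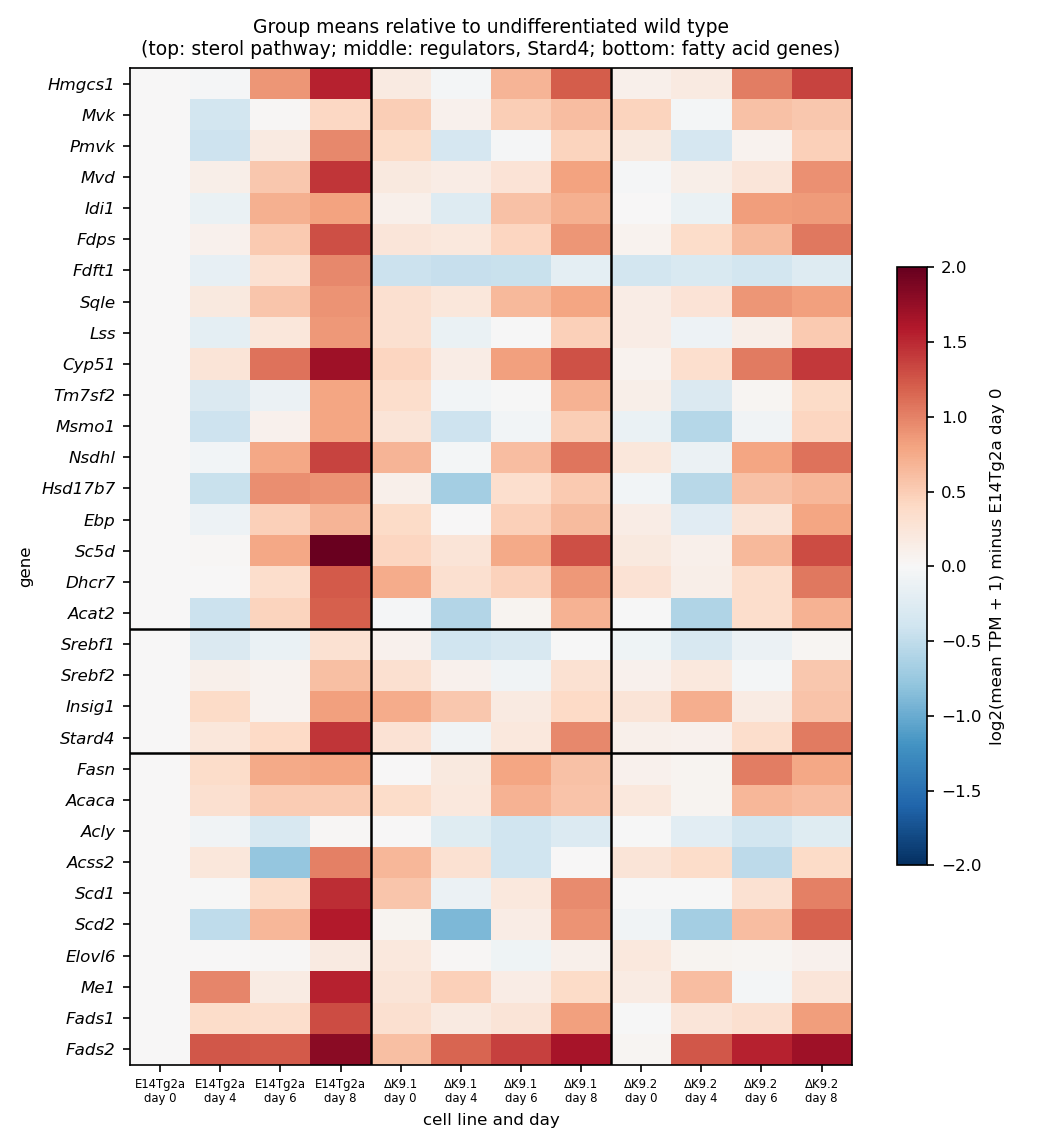
Heat map of the 32 members (rows, grouped by class) in the 12 groups of line and day (columns). Colour gives log2(mean TPM + 1) minus that of E14Tg2a on day 0, and red (higher) is darkest on day 8 of E14Tg2a for most members, while *Fdft1* is blue (lower) on every day in both clones.

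All 18 sterol pathway genes were called higher on day 8. At the entry of the pathway, *Hmgcs1* (HMG-CoA synthase) read 135, 126 and 108 TPM in the 3 libraries of day 0 and 290.1, 384 and 406 TPM on day 8. The groups did not overlap, and the change was 1.54 ± 0.18 (adjusted p = 9.02e-08). *Mvd* (mevalonate diphosphate decarboxylase) went from 50.5, 47.8 and 40.8 TPM to 87.2, 141 and 151 TPM, a change of 1.39 ± 0.20. The largest change of all 32 members was that of *Sc5d* (lathosterol oxidase, late in the pathway), from 14.4, 12.6 and 11.8 TPM to 41.1, 63.4 and 57.3 TPM, which is 1.96 ± 0.20 on the log2 scale (adjusted p = 9.36e-09). *Cyp51* (lanosterol demethylase) went from 36.5, 29.5 and 25.7 TPM to 84.8, 107 and 112 TPM, a change of 1.70 ± 0.16. *Nsdhl*, which acts in the same trimming of lanosterol, went from 22.6, 17.97 and 16.7 TPM to 47.1, 51.2 and 52.1 TPM, a change of 1.36 ± 0.16. In all 5 genes every day 8 library lay above every day 0 library, and in each of them replicate 1 was the lowest library of day 8. The smallest change of the class was that of *Mvk* (mevalonate kinase), 0.40 ± 0.17 (adjusted p = 0.0407), whose day 8 libraries of 58.5, 48.7 and 39.02 TPM overlapped the 42.5, 35.2 and 31.6 TPM of day 0. The other 12 sterol genes rose by between 0.69 (*Ebp*, sterol isomerase) and 1.30 (*Fdps*, farnesyl diphosphate synthase) on the log2 scale. *Fdps* was the most abundant transcript of the class, at 442 ± 59.8 TPM (SD, n = 3) on day 8, and *Hsd17b7*, a late reductase, the least, at 15.5 ± 2.71 TPM.

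Among the regulators, the gene of the sterol-type factor rose and that of the fatty-acid-type factor was not called. *Srebf2* read 115, 118 and 107 TPM on day 0 and 155, 180.3 and 179 TPM on day 8, a change of 0.59 ± 0.11 (adjusted p = 3.03e-05) with no overlap. *Srebf1* read 35.2, 28.7 and 34.1 TPM and 43.9, 39.6 and 38.4 TPM, and its change of 0.31 ± 0.16 gave an adjusted p of 0.0982, although its libraries did not overlap either. *Insig1*, the retention factor and itself a known SREBP target, went from 83.4, 56.9 and 54.9 TPM to 101, 108 and 139 TPM, a change of 0.84 ± 0.20. Replicate 1 of day 0 was well above the other 2. *Stard4*, a cytosolic sterol carrier, rose most of the class, from 30.9, 24.8 and 20.1 TPM to 60.7, 75.2 and 74.2 TPM, a change of 1.45 ± 0.21.

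The desaturases were the members of the fatty acid group that rose most, together with malic enzyme. *Fads2*, the first desaturase of polyunsaturated fatty acids, went from 31.6, 33.2 and 28.4 TPM to 111, 114 and 106 TPM, a change of 1.80 ± 0.16 (adjusted p = 7.56e-10). *Fads1*, the desaturase of a later step, went from 35.01, 31.9 and 25.9 TPM to 69.6, 93.2 and 72.2 TPM, a change of 1.31 ± 0.19. The stearoyl-CoA desaturases *Scd2* and *Scd1*, which are similar copies whose shared reads RSEM divides by estimate, changed by 1.58 ± 0.24 and 1.47 ± 0.19. *Scd2* read 189, 189 and 163 TPM on day 0 and 507, 654 and 475 TPM on day 8, the highest level of any member on that day, while *Scd1* went from 37.8, 34.8 and 34.6 TPM to 86.1, 113 and 106 TPM. *Me1* (cytosolic malic enzyme, a source of NADPH) went from 27.1, 16.6 and 15.7 TPM to 46.9, 74.2 and 57.99 TPM, a change of 1.56 ± 0.26. *Acss2*, which makes acetyl-CoA from acetate, went from 8.25, 8.35 and 7.9 TPM to 11.4, 17.7 and 23.4 TPM, a change of 0.96 ± 0.24. In all 6 genes the day 8 libraries lay above those of day 0. The synthase steps changed less, by 0.78 ± 0.18 for *Fasn* (fatty acid synthase) and 0.52 ± 0.16 for *Acaca* (acetyl-CoA carboxylase). *Acly*, the most abundant member on day 0, read 244, 240.1 and 234 TPM and then 251, 245 and 235 TPM, and the 95% interval of its change was -0.22 to 0.26. *Elovl6*, an elongase, read 44.8, 36.6 and 34.7 TPM and 45.4, 45.3 and 40.8 TPM, with an interval of -0.16 to 0.52.

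The genes did not rise at the same time. On day 4 *Fads2* (1.23 ± 0.16) and *Me1* (0.93 ± 0.26) were called higher than on day 0 and *Pmvk* (phosphomevalonate kinase, -0.42 ± 0.13) lower, where 10.4% of all genes were called higher and 15.9% lower. *Fads2* stood at 73.01, 81.8 and 68.6 TPM on day 4 and did not overlap day 0. *Me1* stood at 57.2, 24.01 and 38.1 TPM, with replicate 2 below the highest day 0 library. On day 6, 12 members were called higher than on day 0 (19.6% of all genes) and 1 lower (20%). The 12 were *Hmgcs1*, *Idi1*, *Fdps*, *Sqle*, *Cyp51*, *Nsdhl*, *Hsd17b7* and *Sc5d* of the sterol pathway and *Fasn*, *Acaca*, *Scd2* and *Fads2* of the fatty acid group. The member called lower was *Acss2*, at 3.51 and 5.22 TPM on day 6, a change of -0.79 ± 0.27 (adjusted p = 0.0215). Between days 4 and 6, 10 members rose and 1 fell, against 14.4% and 10.2% of all genes, and 9 of the 10 were sterol genes. The cells were replated between these days, and the part of the replating in the change was not tested. Between days 6 and 8, 22 rose and none fell, against 16.4% and 9.3% of all genes. *Acss2* changed most in that last step, by 1.75 ± 0.27. The day 4 count became 3 higher and 3 lower without day 4 replicate 2, 1 higher without day 4 replicate 1 or day 0 replicate 3, and 0 lower without day 4 replicate 1 or 3 or day 0 replicate 1 or 2. Median ratio scaling gave 5 higher and 0 lower on day 4, a fit of only the groups compared 1 and 4, and a replicate block 2 and 4. The day 6 count, from 2 libraries, became 7 higher and 0 lower without replicate 2.

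**Figure D2:**
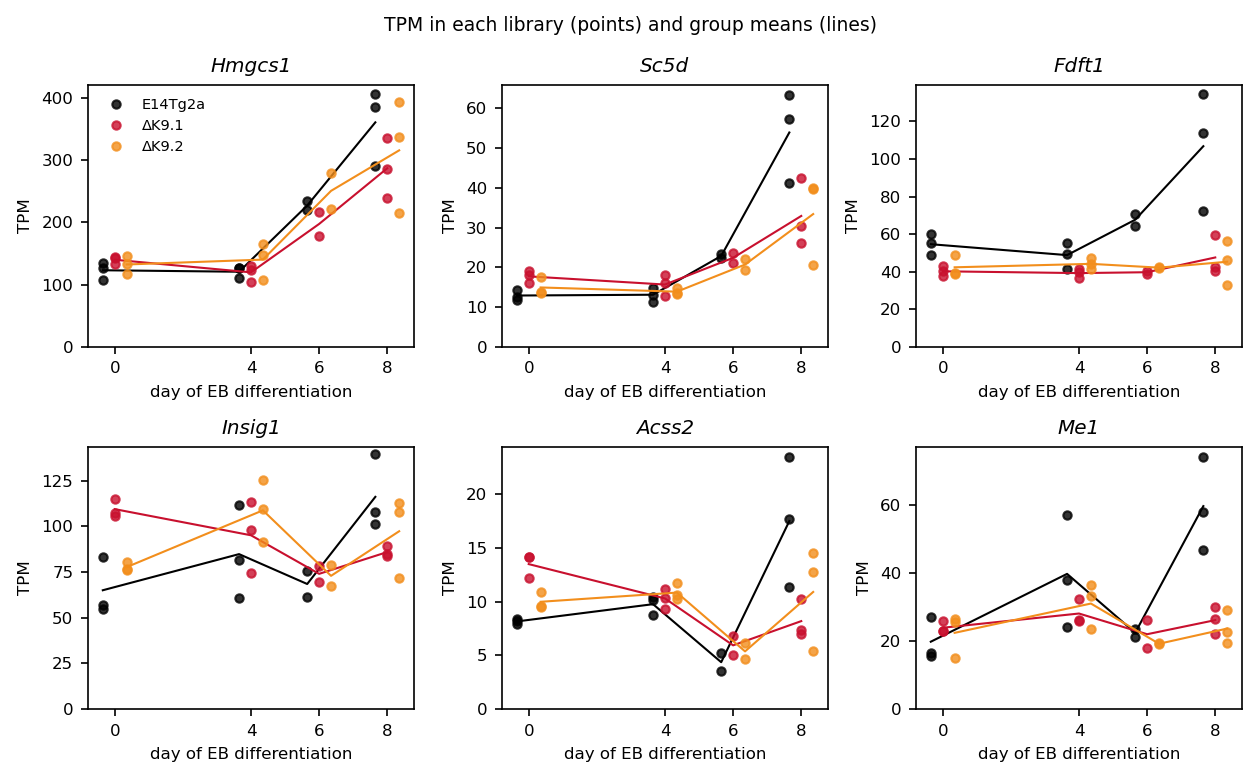
TPM of 6 members in every library (points) against the day of EB differentiation, with lines through the group means and the lines shifted sideways for clarity. On day 8 the 3 E14Tg2a points of *Fdft1* and *Me1* lie above all 6 clone points, while for *Hmgcs1* the lines overlap.

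In the clones fewer members were called higher on day 8 than in wild-type cells. Within ΔK9.1, 13 members were called higher on day 8 than on day 0 and 2 lower, where 25.1% of all genes were called higher and 24.8% lower. Within ΔK9.2, 21 were called higher and none lower, where the shares of all genes were 24.6% and 26.7%. The median change was 0.38 for the sterol pathway, -0.07 for the regulators and 0.25 for the fatty acid genes in ΔK9.1, and 0.70, 0.36 and 0.55 in ΔK9.2. The medians over all genes were 0.00 and -0.02. Changes were compared on the signed log2 scale, where a fall counts as smaller than a rise. The change was smaller than in E14Tg2a in 32 of 32 members in ΔK9.1 (56.1% of all genes). In ΔK9.2 this held in 31 of 32 (59.9%), and both counts use the same E14Tg2a libraries. *Acly* was counted through a fall, of -0.29 in ΔK9.1. The shares over all genes include genes that fell in E14Tg2a, for which a weaker fall counts as larger. The exception in ΔK9.2 was *Idi1* (isopentenyl diphosphate isomerase), at 0.82 ± 0.12 against 0.79 ± 0.12 in E14Tg2a.

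In all 3 lines 13 members were called higher, as were 18.4% of all genes. These were *Hmgcs1*, *Mvd*, *Idi1*, *Fdps*, *Sqle*, *Cyp51*, *Sc5d* and *Acat2*, with *Stard4*, *Fasn*, *Scd2*, *Fads1* and *Fads2*. *Hmgcs1* rose by 1.02 ± 0.18 within ΔK9.1 and 1.21 ± 0.18 within ΔK9.2, and *Fads2* by 0.99 ± 0.16 and 1.64 ± 0.16. A further 8 were called in E14Tg2a and ΔK9.2 and not in ΔK9.1, as were 2.86% of all genes (*Msmo1*, *Nsdhl*, *Hsd17b7*, *Ebp*, *Dhcr7*, *Srebf2*, *Acaca* and *Scd1*). Another 7, and 7.55% of all genes, were called in E14Tg2a and in neither clone: *Mvk*, *Pmvk*, *Fdft1*, *Lss*, *Tm7sf2*, *Insig1* and *Me1*. Different calls in different lines do not show that the lines differ, and the difference itself is tested further on. *Acss2* was called higher in E14Tg2a and lower in ΔK9.1, where it went from 12.2, 14.2 and 14.2 TPM to 6.97, 10.3 and 7.36 TPM (-0.67 ± 0.24, adjusted p = 0.0227). *Acly* was lower in ΔK9.1 (-0.29 ± 0.12, adjusted p = 0.042). *Srebf1* and *Elovl6* were called in no line. The ΔK9.1 count of higher members became 7 without day 8 replicate 2 and 18 without day 8 replicate 3. Its 2 lower calls became 0 without day 8 replicate 1 or 3 or day 0 replicate 2, and 1 without day 0 replicate 1 or 3.

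**Figure D3:**
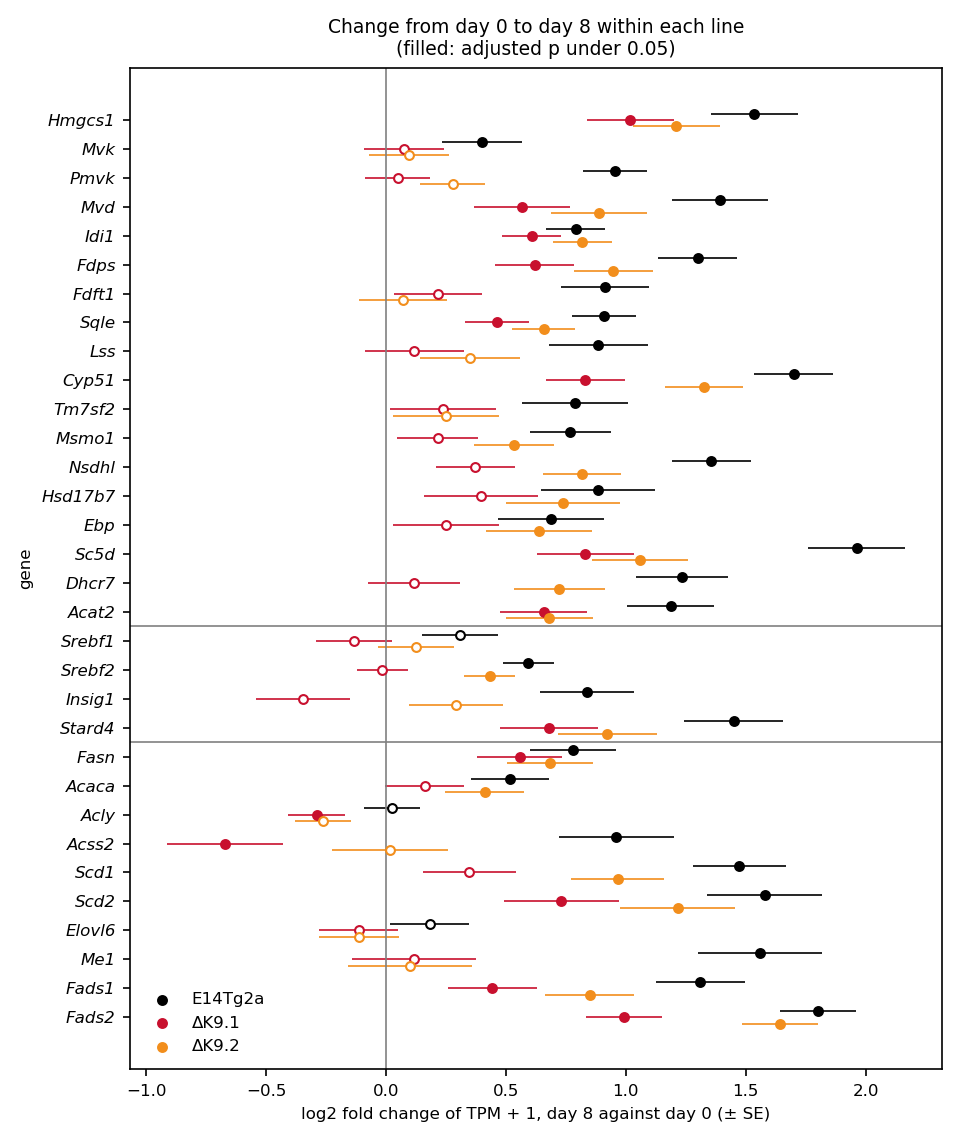
Log2 fold change of TPM + 1 from day 0 to day 8 (x axis, with SE bars) for each member (rows) in E14Tg2a, ΔK9.1 and ΔK9.2, filled where the adjusted p was under 0.05. The E14Tg2a points lie farthest to the right in 31 of 32 members, with *Idi1* the exception.

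*Fads2* was called higher on day 4 in every line. In ΔK9.1, 9 members were called lower on day 4 than on day 0 and 1 higher, where 24.9% of all genes were called lower and 4.28% higher. The 9 included *Scd2* (-0.95 ± 0.24), *Hsd17b7* (-0.77 ± 0.24) and *Nsdhl* (-0.72 ± 0.16), and the 1 higher was *Fads2*. In ΔK9.2, *Mvk*, *Pmvk* and *Acat2* were lower and *Fads2* higher, 3 and 1 members, where 24.2% of all genes were lower and 8.09% higher. On day 6, ΔK9.1 had 3 members higher than on day 0 and 4 lower (11.2% and 20.3% of all genes), and ΔK9.2 had 10 higher and 2 lower (16% and 23.9%). The dip of *Acss2* on day 6 was called in the clones too, at -1.07 ± 0.27 in ΔK9.1 and -0.79 ± 0.27 in ΔK9.2.

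Before differentiation, several members were already higher in ΔK9.1 than in wild-type cells. On day 0, over 14504 genes, 9 members were called higher in ΔK9.1 and 1 lower, where 10.1% of all genes were called higher and 5.36% lower. The 9 were *Mvk*, *Pmvk*, *Nsdhl*, *Dhcr7*, *Srebf2*, *Insig1*, *Acss2*, *Scd1* and *Fads2*, and the 1 lower was *Fdft1*. *Insig1* read 115, 108 and 106 TPM in ΔK9.1 against 83.4, 56.9 and 54.9 in E14Tg2a, a difference of 0.77 ± 0.14 (adjusted p = 0.00831) with no overlap. *Dhcr7*, the last reductase of the cholesterol pathway, read 73.4, 65.6 and 60.6 TPM against 50.2, 36.6 and 31.2, a difference of 0.77 ± 0.17. *Nsdhl* read 31.6, 31.3 and 30.2 TPM against 22.6, 17.97 and 16.7, a difference of 0.68 ± 0.12 (adjusted p = 0.00638). All 3 ΔK9.1 libraries were above all 3 wild-type libraries in each of these genes. On that day the endoderm markers summed to 143, 15.1 and 18.6 TPM in E14Tg2a and 12.2 to 22.8 TPM in ΔK9.1. The neural markers summed to 269.5 to 329 TPM in E14Tg2a and 203 to 233 TPM in ΔK9.1, without overlap. The mesoderm and heart markers summed to 9.7 to 13.2 TPM in E14Tg2a and 13.7 to 14.9 TPM in ΔK9.1, also without overlap. Sums of the ES cell and of the endothelial and blood markers overlapped. The part of any of these in the differences was not tested.

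*Acss2* read 12.2, 14.2 and 14.2 TPM in ΔK9.1 against 8.25, 8.35 and 7.9 in E14Tg2a, a difference of 0.66 ± 0.11. *Scd1* read 52.6, 56.4 and 49.7 TPM against 37.8, 34.8 and 34.6 (0.55 ± 0.10), and *Fads2* read 45.4, 52.6 and 45.3 TPM against 31.6, 33.2 and 28.4 (0.61 ± 0.12). The ΔK9.1 libraries of these genes, and of *Mvk*, *Pmvk* and *Srebf2*, all lay above those of E14Tg2a. *Mvk* read 53.9, 52.2 and 49.3 TPM against 42.5, 35.2 and 31.6 (0.51 ± 0.13), *Pmvk* 73.02, 76.5 and 74.6 against 56.5, 60.2 and 53.7 (0.39 ± 0.11), and *Srebf2* 148, 147 and 130.1 against 115, 118 and 107 (0.32 ± 0.08). *Srebf1* differed by 0.09 ± 0.11 and was not called. In ΔK9.2 no member was called in either direction, and limma called 0.00689% of all genes higher and 0.0758% lower. At an unadjusted p under 0.05 it had 3 members, where 1375 of all 14504 genes passed. The 3 were *Mvk* (0.45 ± 0.13) and *Acss2* (0.26 ± 0.11), higher, and *Fdft1* (-0.36 ± 0.12), lower. Set against each other, ΔK9.1 was higher than ΔK9.2 in *Scd1* (0.57 ± 0.10) and *Fads2* (0.57 ± 0.12), 2 members against 1% of all genes, and lower in none, against 0.903%. The 9 higher calls in ΔK9.1 became between 4 and 12 when 1 library was left out (12 without E14Tg2a replicate 1, 5 without E14Tg2a replicate 2 or 3 or ΔK9.1 replicate 1, and 4 without ΔK9.1 replicate 2), and the 1 lower call held only without E14Tg2a replicate 3. A fit that blocked on replicate number called 19 members higher for ΔK9.1 and 1 for ΔK9.2 with E14Tg2a as the reference, and 10 for ΔK9.1 over ΔK9.2. The shares over all genes in that fit are not given here, so these counts cannot be set against them. The 2 calls between the clones became 1 without ΔK9.2 replicate 2 and 0 without any other of the 6 clone libraries.

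On days 4 and 6 hardly any member was called between the clones and wild-type cells. On day 4 no member was called between the mean of both clones and E14Tg2a by limma, where 0.447% of all genes were called higher and 2.4% lower. At an unadjusted p under 0.05 there was 1 member (*Mvk*, 0.39 ± 0.14), where 2524 of all 16336 genes passed. On day 6 none was called higher and 1 lower (1.11% and 2.72% of all genes). This was *Fdft1* (squalene synthase, the first step committed to sterols), at 70.8 and 64.5 TPM in E14Tg2a, with ΔK9.1 at 39.00 and 40.4 and ΔK9.2 at 41.8 and 42.5, a difference of -0.71 ± 0.19 (adjusted p = 0.036). The count became 2 without ΔK9.1 replicate 2 and 0 without any other of the 6 libraries of that day.

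On day 8, 11 members were called lower in the clones and none higher, with E14Tg2a as the reference, where 12.2% of all genes were lower and 7.52% higher. These were *Pmvk*, *Mvd*, *Fdft1*, *Sc5d* and *Acat2* of the sterol pathway, and *Acly*, *Acss2*, *Scd1*, *Scd2*, *Me1* and *Fads1* of the fatty acid group. The median difference was -0.33 for the 18 sterol genes, -0.33 for the 4 regulators and -0.40 for the 10 fatty acid genes. In 5 members, *Pmvk*, *Fdft1*, *Acat2*, *Acly* and *Me1*, all 6 clone libraries lay below all 3 E14Tg2a libraries, which held for 7.99% of all genes. Each clone by itself gave 7 lower calls in ΔK9.1 (6.68% of all genes) and 4 in ΔK9.2 (11.3%), and no higher call (4.65% and 5.31% of all genes). The 4 of ΔK9.2, *Pmvk*, *Fdft1*, *Sc5d* and *Me1*, were among the 7 of ΔK9.1. No member was called between the clones on day 8, and neither was any other of the 16336 genes. None of the members had an unadjusted p under 0.05, where 990 of all genes did.

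**Figure D4:**
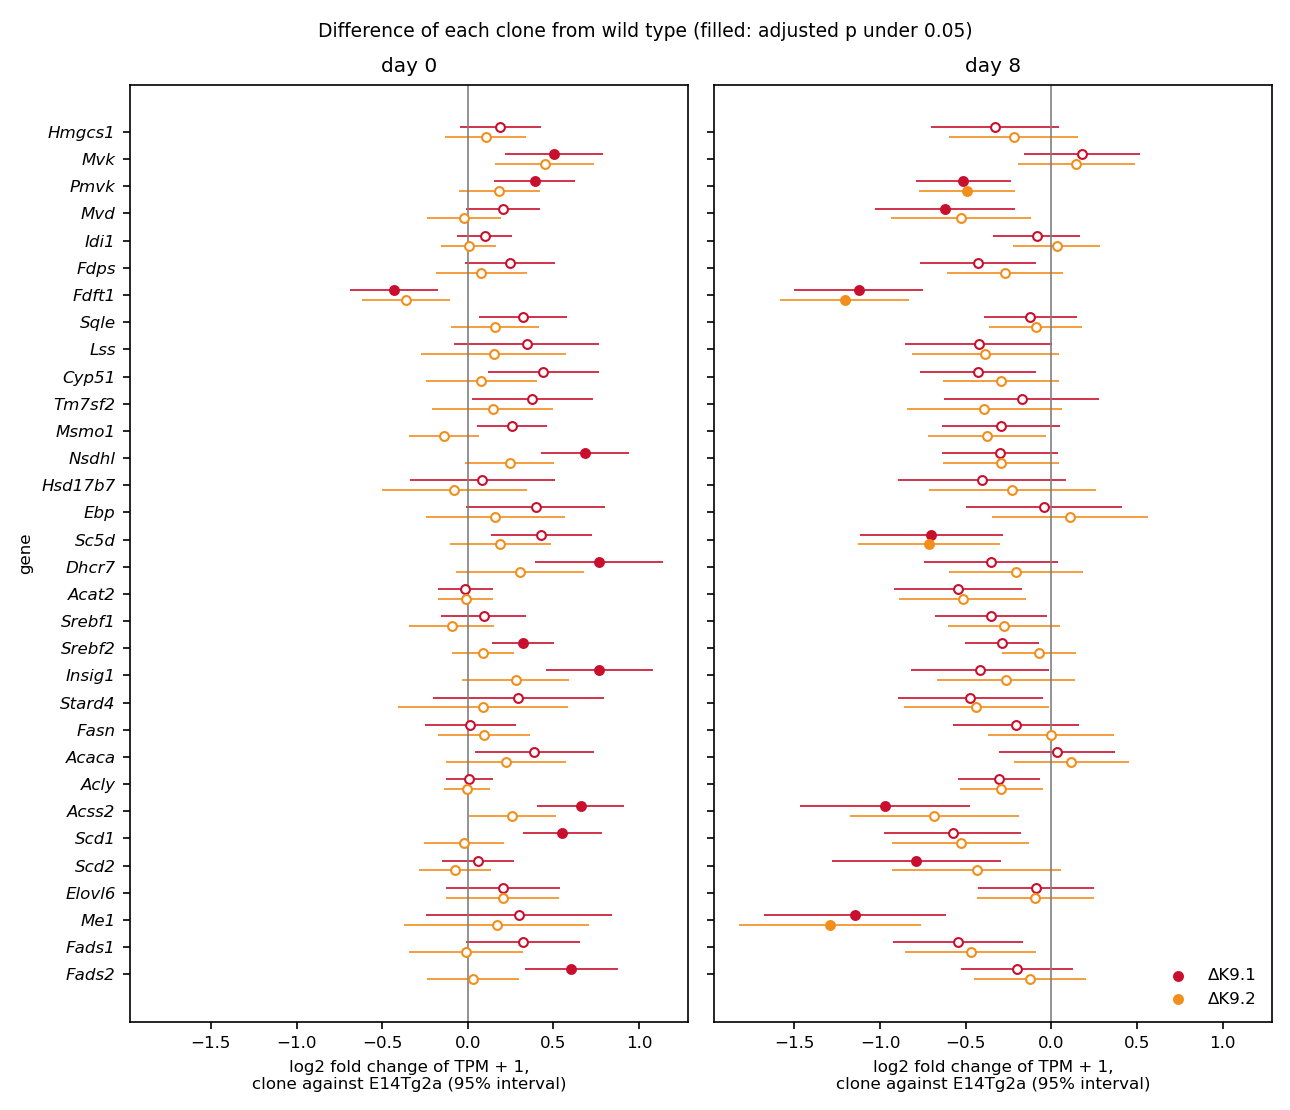
Log2 fold change of TPM + 1 of each clone against E14Tg2a (x axis, with 95% intervals) for each member (rows) on day 0 (left) and day 8 (right), filled where the adjusted p was under 0.05. On day 0 most ΔK9.1 points lie to the right of 0, and on day 8 most points of both clones lie to the left.

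*Me1* showed the largest difference of day 8. It read 46.9, 74.2 and 57.99 TPM in E14Tg2a, with ΔK9.1 at 22.1, 29.95 and 26.4 and ΔK9.2 at 19.3, 29.1 and 22.6, a difference of -1.22 ± 0.22 (adjusted p = 4.61e-04). *Acss2* read 11.4, 17.7 and 23.4 TPM in E14Tg2a, with ΔK9.1 at 6.97, 10.3 and 7.36 and ΔK9.2 at 5.39, 14.6 and 12.8, a difference of -0.83 ± 0.21 (adjusted p = 0.00637), and the lowest E14Tg2a library lay within the clones' range. *Sc5d* read 41.1, 63.4 and 57.3 TPM in E14Tg2a, with ΔK9.1 at 30.3, 42.4 and 26.1 and ΔK9.2 at 20.5, 40.1 and 39.7, a difference of -0.71 ± 0.17, with replicate 2 of ΔK9.1 above the lowest E14Tg2a library. *Pmvk* read 93.7, 115 and 127 TPM in E14Tg2a, with ΔK9.1 at 68.4, 89.8 and 75.4 and ΔK9.2 at 64.2, 92.7 and 81.4, a difference of -0.50 ± 0.12 (adjusted p = 0.00341), without overlap. *Acat2*, the cytosolic thiolase that starts the pathway, read 216, 249.96 and 249 TPM in E14Tg2a, with ΔK9.1 at 185, 214 and 109 and ΔK9.2 at 136, 209 and 161, a difference of -0.53 ± 0.16. *Mvd* read 87.2, 141 and 151 TPM in E14Tg2a, with ΔK9.1 at 76.3, 105 and 62.9 and ΔK9.2 at 60.5, 117 and 86.7, a difference of -0.57 ± 0.17. In *Mvd* replicate 1 of E14Tg2a was lower than 2 clone libraries.

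*Scd1*, *Scd2* and *Fads1* were called lower, with libraries that overlapped between the lines. *Scd2* read 507, 654 and 475 TPM in E14Tg2a, with ΔK9.1 at 394, 446 and 173 and ΔK9.2 at 342, 540.5 and 343, a difference of -0.61 ± 0.21 (adjusted p = 0.0383). *Scd1* read 86.1, 113 and 106 TPM in E14Tg2a, with ΔK9.1 at 70.4, 92.02 and 47.3 and ΔK9.2 at 47.5, 97.3 and 73.05, a difference of -0.55 ± 0.17. *Fads1* read 69.6, 93.2 and 72.2 TPM in E14Tg2a, with ΔK9.1 at 59.6, 72.7 and 34.1 and ΔK9.2 at 46.6, 65.3 and 56.9, a difference of -0.51 ± 0.16. *Acly*, at 251, 245 and 235 TPM in E14Tg2a, with ΔK9.1 at 202, 221 and 171 and ΔK9.2 at 154, 231 and 219, differed by less (-0.30 ± 0.10) but did not overlap. *Fads2*, *Fasn* and *Acaca* were not called, with 95% intervals of -0.45 to 0.12, -0.42 to 0.21 and -0.22 to 0.37.

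The other sterol genes and the regulators lay mostly below 0 without a call. *Hmgcs1* differed by -0.27 ± 0.16, *Cyp51* by -0.36 ± 0.14 and *Idi1* by -0.03 ± 0.11. *Srebf2* stood at 143, 146 and 131 TPM with ΔK9.1, at 130.4, 182 and 181 with ΔK9.2, and differed by -0.18 ± 0.09. *Srebf1* stood at 31.8, 43.4 and 22.8 TPM with ΔK9.1, at 29.3, 39.1 and 32.2 with ΔK9.2, and differed by -0.31 ± 0.14. *Insig1* stood at 84.8, 89.5 and 83.5 TPM with ΔK9.1, at 71.5, 113 and 108 with ΔK9.2, and differed by -0.34 ± 0.17, and *Stard4* stood at 48.2, 59.3 and 43.5 TPM with ΔK9.1, at 35.3, 70.7 and 53.5 with ΔK9.2, and differed by -0.46 ± 0.18. *Mvk*, *Ebp* and *Acaca* were the members with a difference above 0. The 11 calls depended on the libraries and on the fit. They became 4 without E14Tg2a replicate 2, 5 without E14Tg2a replicate 3 or ΔK9.2 replicate 1, 6 without ΔK9.1 replicate 3, and 16 without replicate 2 of either clone. A fit of the 9 day 8 libraries alone called 2, *Fdft1* and *Me1*. *Fdft1*, *Pmvk* and *Me1* were called whichever library was left out.

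*Fdft1* had a lower mean in the clones on every day, although it was not called on day 4 (-0.22 ± 0.16, adjusted p = 0.561) or in ΔK9.2 on day 0. On day 0 it read 55.2, 59.9 and 48.7 TPM in E14Tg2a, with ΔK9.1 at 42.99, 40.1 and 37.5 and ΔK9.2 at 39.3, 48.7 and 38.9. On day 8 it read 72.1, 135 and 114 TPM in E14Tg2a, with ΔK9.1 at 42.4, 59.7 and 40.6 and ΔK9.2 at 33.05, 56.5 and 46.3, a difference of -1.17 ± 0.16 (adjusted p = 2.19e-05). The gene lies on chromosome 14 (mm10, chr14:63145150-63179578, minus strand), and it is the only member between 50 and 80 Mb of that chromosome. Of the 261 genes tested in this segment, 237 had a lower mean in the clones on day 8, 158 were called lower and 3 higher, and the median difference was -0.67. Of these genes 30 were more negative than *Fdft1*. On day 0 the median of 236 genes was -0.59 for ΔK9.1 and -0.52 for ΔK9.2, and *Fdft1* differed by -0.43 ± 0.12 and -0.36 ± 0.12. The part of the segment in the *Fdft1* difference was not tested.

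The difference between the lines in the change from day 0 to day 8 was tested directly. It was called in 9 members, all with a smaller signed change in the clones, and in none the other way. Over all genes, whether they rose or fell in E14Tg2a, 4.95% were called with a smaller and 1.35% with a larger signed change. The 9 were *Me1* (-1.45 ± 0.32, adjusted p = 0.00909), *Acss2* (-1.29 ± 0.29, 0.012), *Sc5d* (-1.02 ± 0.25, 0.0158), *Insig1* (-0.86 ± 0.24, 0.0314), *Scd1* (-0.82 ± 0.24, 0.0399), *Dhcr7* (-0.81 ± 0.23, 0.0367), *Pmvk* (-0.79 ± 0.17, 0.00756), *Fdft1* (-0.77 ± 0.22, 0.04) and *Nsdhl* (-0.76 ± 0.20, 0.0244). The median over all 32 members was -0.53 and that over all genes -0.08. In *Insig1*, *Dhcr7* and *Nsdhl* the clones were not called lower on day 8, and ΔK9.1 was higher than E14Tg2a on day 0. *Pmvk*, *Acss2* and *Scd1* were called both higher in ΔK9.1 on day 0 and lower in the clones on day 8. *Dhcr7* read 73.4, 99.6 and 107 TPM in E14Tg2a, with ΔK9.1 at 69.1, 85.6 and 63.3 and ΔK9.2 at 54.2, 98.3 and 94.6 on day 8, and *Nsdhl* read 47.1, 51.2 and 52.1 TPM in E14Tg2a, with ΔK9.1 at 37.2, 50.97 and 35.02 and ΔK9.2 at 29.3, 49.8 and 45.97. The 9 calls became 2 without E14Tg2a day 8 replicate 2, 3 without its day 0 replicate 3, 4 without its day 0 replicate 2 or day 8 replicate 3, 5 without ΔK9.2 day 8 replicate 1 or day 0 replicate 2, 15 without ΔK9.1 day 8 replicate 2 and 14 without ΔK9.2 day 8 replicate 2. A fit of only the groups compared called 3, *Pmvk*, *Insig1* and *Me1*. This test, the day 8 comparison and the change within E14Tg2a share the E14Tg2a day 8 libraries. The day 0 libraries are likewise shared by this test and the day 0 comparisons.

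The lines differed on day 8 in markers of other cells as well. The 15 markers of visceral and primitive endoderm summed to between 542 and 682 TPM in E14Tg2a, with ΔK9.1 at 40.9 to 163 and ΔK9.2 at 64.5 to 86.0, and 12 of 15 were called lower in the clones. The 10 ES cell markers summed to between 408 and 506 TPM in E14Tg2a and between 743 and 1727 in the 6 clone libraries, with 8 of 10 higher and 1 lower. Replicate 3 of ΔK9.1 stood apart within its group. Its ES cell sum was 1727 TPM against 793 and 743, its mesoderm and heart sum 168 against 589 and 547, and its fatty acid gene sum 654 against 1045 and 1200. Its sterol sum of 1485 TPM was also the lowest of the 3, against 1769 and 2197. Without it the clones had 6 members lower on day 8 and 6 with a smaller change. The 8 endothelial and blood markers, which include globins, summed to between 1114 and 4925 TPM in E14Tg2a and between 44.0 and 2013 in the clones, with 6 lower. The 11 mesoderm and heart markers gave 2 higher and 6 lower, and sums of 725 to 1247 TPM against 168 to 655. Of 6 listed neural markers 1 was lower. No marker was at 0 in a whole day 8 group. On day 4 of E14Tg2a the endoderm sums were 1120, 138 and 486 TPM in replicates 1 to 3, and 4 of 32 members had this order of libraries (*Me1*, at 57.2, 24.01 and 38.1 TPM, *Insig1*, *Acss2* and *Scd1*). On day 8, with sums of 682, 677 and 542 TPM, 8 of 32 had the order of that day, and *Me1* was not among them. On day 0, 3 of 32 had the order of its endoderm sums. With 3 libraries only 6 orders exist, and the share of all genes in each order is not given here. These counts therefore do not show a link with the endoderm sums. The part of these cells in the differences of the members was not tested.

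**Figure D5:**
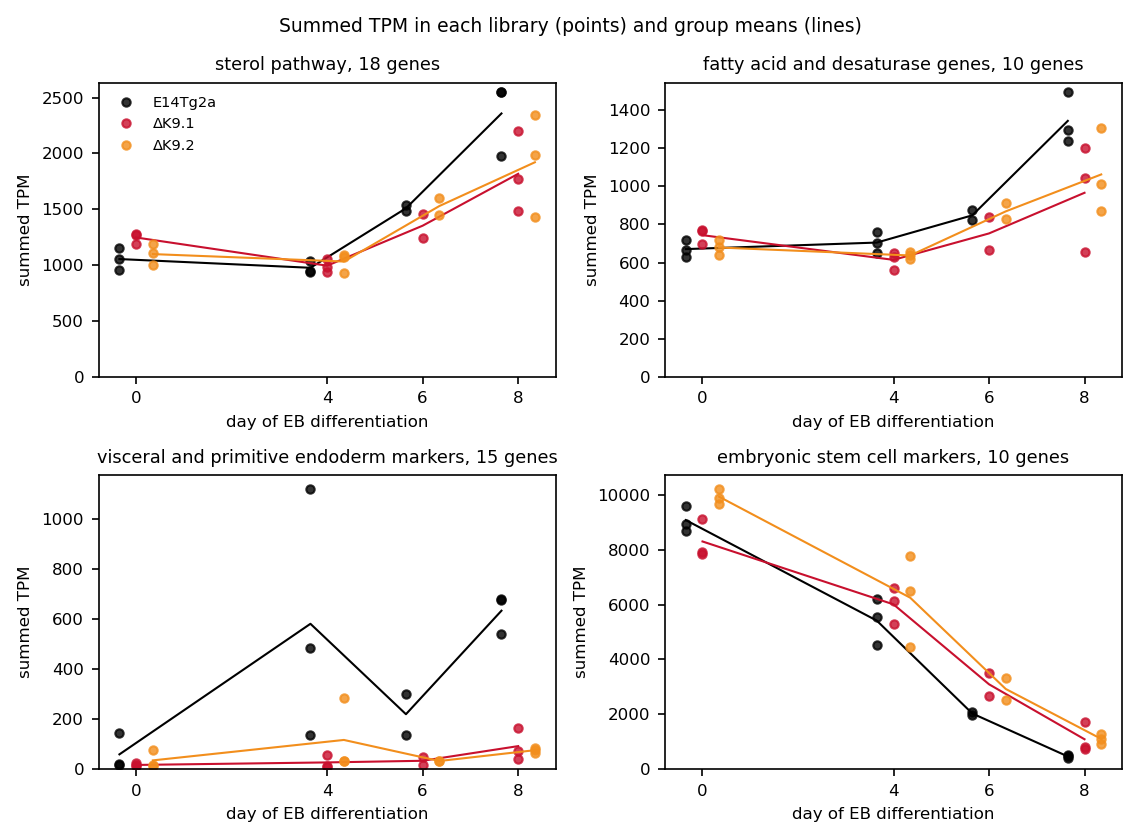
Summed TPM per library (points) against the day of EB differentiation, with lines through group means, for the 18 sterol pathway genes, the 10 fatty acid genes, 15 visceral and primitive endoderm markers and 10 ES cell markers. In each line the mean sterol and fatty acid sums are highest on day 8, when all endoderm sums of E14Tg2a lie above, and all its ES cell sums below, those of both clones.

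Lists of neighbouring steps are given beside the shares over all genes, which were 32.1% higher and 26.2% lower for day 8 of E14Tg2a against its day 0, and 7.52% higher and 12.2% lower for the clones against E14Tg2a on day 8. Of 10 genes of SREBP processing, 5 rose and 2 fell in E14Tg2a by day 8, and 3 were lower and 1 higher in the clones than in E14Tg2a on day 8. *Insig2*, the paralogue of *Insig1*, rose by 0.85 ± 0.27. Of 14 genes of the isoprenoid branch, which takes farnesyl diphosphate away from sterols, 5 rose and 4 fell, and 1 was higher and 1 lower in the clones, all near the shares over all genes. *Rabggtb*, a Rab prenylation subunit, fell by 0.89 on the log2 scale, from 185 to 99.5 TPM.

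Of 18 genes of sterol uptake, efflux and storage, 10 rose and 4 fell in E14Tg2a, and 5 were lower and none higher in the clones. *Vldlr*, a lipoprotein receptor, went from 4.03 to 29.7 TPM in E14Tg2a and stood at 29.6 TPM in ΔK9.1 and 34.1 in ΔK9.2. *Soat1*, which esterifies cholesterol, went from 20.6 to 85.1 TPM. *Lipa*, the lysosomal lipase, went from 6.05 to 27.2 TPM and was lower in the clones at 11.5 and 8.33 TPM, a difference of -1.35 ± 0.19 (adjusted p = 4.01e-05). *Scarb1*, the HDL receptor, stood at 65.4 TPM in E14Tg2a and 36.5 and 35.5 TPM in the clones, a difference of -0.85 ± 0.18. Of 21 tested genes for other elongases, desaturases and fatty acid activation, 10 rose and 5 fell, and 4 were lower and 2 higher in the clones. *Elovl1* rose from 11.3 to 50.9 TPM, and *Acacb*, the acetyl-CoA carboxylase of the mitochondrial surface, fell from 13.0 to 2.08 TPM.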

How the data were processed

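RNA from 33 libraries was sequenced on poly-A selected, stranded, paired-end libraries. Per the labels and the methods, the authors aligned reads to mm10 with STAR and made the deposited TPM with RSEM after omitting outliers far from the mean of the first principal component, without naming what was omitted. Tool versions and the annotation are not given in the sources used here. The table's 22 columns of the authors' DESeq2 fold changes and FDR were not used. TPM carry no depth, and values with decimal commas were read as numbers. Samples were grouped by line and day from the labels.

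TPM were taken as log2(TPM + 1) and tested with limma 3.58.1 in R 4.3.3 (empirical Bayes with a trend, Benjamini-Hochberg over all genes, call at an adjusted p under 0.05). One fit held all 33 libraries and 12 groups. It used 16336 genes, and the day 0 comparisons of clones used the 9 day 0 libraries and 14504 genes with a group mean of at least 1 TPM. Per the methods, the replicates come from independent assays in which the lines were run side by side. Each deletion line is 1 clone, so p-values measure the spread between assays and not between clones. The script was tested on simulated data.

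The members and all gene lists were chosen with earlier results of these data known. Values per library are given for members called on day 8 between clones and wild type or in the change from day 0 to day 8, the 5 largest wild-type changes in each class, members called in a clone on day 0, and *Srebf1*, *Srebf2* and *Insig1*. At most 3 genes are named per other list and comparison. The chromosome segment around *Fdft1* was chosen after values there were seen. Alternatives were another pseudocount (0.1), another or no minimum TPM (5), median ratio scaling, a replicate block, fits of fewer or more groups, and each library left out.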

Additional observations from a re-analysis of the deposited data

Results flagged for a closer look

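In 9 members the clones and E14Tg2a changed by different amounts between days 0 and 8 in the interaction test of limma, each with an adjusted p under 0.05 and each with a smaller change in the clones. The differences in log2 change were -1.453 for *Me1*, -1.288 for *Acss2*, -1.017 for *Sc5d*, -0.8648 for *Insig1*, -0.8173 for *Scd1*, -0.8145 for *Dhcr7*, -0.7913 for *Pmvk*, -0.7688 for *Fdft1* and -0.761 for *Nsdhl*. *Acss2* and *Pmvk* were called whichever library was left out, and *Me1* was lost only without E14Tg2a day 8 replicate 2.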

How the results depend on the processing

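The count of members higher on day 8 of E14Tg2a was between 27 and 29 with 1 library left out. Leaving out 1 library gave 1 to 3 higher and 0 to 3 lower on its day 4, 7 to 12 higher and 0 to 1 lower on its day 6, 7 to 18 higher and 0 to 2 lower on day 8 of ΔK9.1, and 18 to 23 higher and 0 to 1 lower on day 8 of ΔK9.2. Against E14Tg2a it gave 4 to 12 higher and 0 to 1 lower for ΔK9.1 on day 0, 0 to 1 higher for ΔK9.2, 0 to 1 higher for ΔK9.1 over ΔK9.2, 0 to 2 lower for both clones on day 6, 4 to 16 lower on day 8, and 2 to 15 with a smaller change. A fit of only the groups compared gave 2 lower on day 8, 3 with a smaller change, 1 higher and 4 lower on day 4 and 2 lower on day 6 of E14Tg2a. Median ratio scaling gave 5 higher and 0 lower on day 4 and 2 lower on day 6 of E14Tg2a, and 1 higher in the clones on day 4 and 1 on day 6. It turned the day 0 difference of *Srebf1* in ΔK9.1 to -0.00231. A fit of all 33 libraries gave 0 lower in ΔK9.1 on day 0 and 0 higher for ΔK9.1 over ΔK9.2, where a pseudocount of 0.1 or no minimum TPM gave 1. The cause was not tested.

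The methods describe independent assays with the lines run side by side, and neither they nor the labels state that a replicate number names the assay. Deviations of same-numbered libraries from their group means correlated at a median of 0.22 over 33 pairs (lowest -0.01, 31 over 0.1), and those of different numbers at -0.13 over 60 pairs. Deviations cancel within a group, so the negative value follows from the positive one and is not separate evidence. With the number as a replicate block, ΔK9.1 on day 0 had 19 members higher, ΔK9.2 had 1 higher, ΔK9.1 over ΔK9.2 had 10, day 4 and day 6 of E14Tg2a had 4 and 2 lower, the clones had 1 higher on day 6, and day 8 of ΔK9.2 had 1 lower. On day 8 it gave 14 lower in the clones and 12 with a smaller change. Shares over all genes are not given for this block. TPM keep no depth, so a limit from counting cannot be given.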

Other observations

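Of 22 tested genes of fatty acid oxidation, which break down what the synthesis genes make, 9 were called lower than in E14Tg2a and none higher on day 8, where 12.2% of all genes were lower and 7.52% higher, with a median difference of -0.33 against -0.0035 over all genes. *Acadvl*, the very long chain acyl-CoA dehydrogenase, stood at 30.6 TPM in E14Tg2a, against 17.4 for ΔK9.1 and 15.2 for ΔK9.2 (-0.87 ± 0.13, adjusted p = 9.21e-05). Within E14Tg2a the list was mixed by day 8, with 9 genes higher and 4 lower than on day 0, where 32.1% of all genes were higher and 26.2% lower. *Cpt1a*, which admits fatty acids to mitochondria, fell from 27.0 to 1.14 TPM (-3.76 ± 0.29) and stood at 1.59 and 1.35 TPM in the clones.

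Of 18 genes of glycerolipid synthesis and lipid droplets, 6 rose and 4 fell in E14Tg2a by day 8, and 1 was higher and 2 lower in the clones. These counts are near the shares of all genes, 32.1% and 26.2% for the change in E14Tg2a and 7.52% and 12.2% for the clones. *Mogat2*, a monoacylglycerol acyltransferase, went from 1.39 to 58.5 TPM and stood at 45.6 TPM in ΔK9.1 and 51.6 in ΔK9.2. *Plin2*, a coat protein of lipid droplets, went from 23.4 to 66.2 TPM and stood at 52.9 and 45.6 TPM in the clones. The day 8 values come from the same E14Tg2a libraries as those of the synthesis genes.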
